A study of Mus musculus with 3 samples.

Results

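The Iroquois genes are 6 homeobox genes, Irx1 to Irx6, which lie in the mouse genome as 2 clusters of 3, and their promoters, bodies and the long spaces between them were read here from maps of the Polycomb mark H3K27me3 and of the forms of RNA polymerase II whose tail carries phosphate at serine 5 (Pol2-S5p) or at serine 7 (Pol2-S7p). The members were taken by name from the mm10 gene annotation (GENCODE release M21) and are 6 of 35312 protein-coding and long noncoding RNA (lncRNA) genes, 21938 of which are protein-coding. All maps came from F123 mouse embryonic stem cells (mESCs), a male hybrid line from a cross of S129/Jae and Cast mice, without any treatment. The cells were grown on feeder fibroblasts with LIF and moved to gelatin without feeders, for at least 2 passages, before harvest. Each mark was measured by ChIP-seq in 1 library, so no value below has a replicate error and no test between libraries was possible. The deposited lists give enriched regions with a width and a score but no read counts, so the depth cannot be read from them. The paper gives the sequencing depth in a supplementary dataset, which was not used here. The calls hold for the line as a whole because the reads of both parental alleles are pooled in them.

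Iroquois proteins are transcription factors of the TALE homeobox class, first described in Drosophila, where they pattern the body wall and the eye. In the mouse they act in the developing heart, limb, neural tube, kidney and retina. Polycomb repressive complex 2 places H3K27me3 at the promoters of many such developmental regulators. Serine 5 of the polymerase tail is phosphorylated when transcription starts, and serine 7 phosphorylation accompanies polymerase that goes on to make RNA. A promoter with H3K27me3 and Pol2-S5p but no Pol2-S7p is called PRCr (Polycomb repressed) here, and a promoter with all 3 marks is called PRCa (Polycomb active). Active means here both polymerase marks and no H3K27me3, and Inactive means none of the marks. The study also asked for a minimum of reads in the window, which the region lists do not allow. It left overlapping genes and genes with close start sites out of its classification as well. That exclusion was not applied here, so Irx2, Irx3 and Irx5, which start close to lncRNA genes, stayed in.

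The Irx1-Irx2-Irx4 cluster lies on chromosome 13 and the Irx3-Irx5-Irx6 cluster on chromosome 8. Irx1 (chr13:71957921-71963723, minus strand, 4 exons in the transcript used) works in lung, kidney and neural patterning. Irx2 (chr13:72628820-72634198, plus strand) is expressed with Irx1 in many of the same tissues, and Irx4 (chr13:73260479-73269608, plus strand) sets the identity of heart ventricle muscle. Irx3 (chr8:91798525-91802067, minus strand) acts with Irx5 in the limb bud and in the conduction system of the heart. Irx5 (chr8:92357625-92376286, plus strand) shapes the repolarization of ventricle muscle, and Irx6 (chr8:92674288-92680956, plus strand) acts in bipolar neurons of the retina. The genes correspond across the clusters by position and sequence as Irx1 with Irx3, Irx2 with Irx5 and Irx4 with Irx6.

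The promoter sequences below are shown because CpG-dense promoter DNA is where H3K27me3 usually begins in mESCs. They are from RefSeq on GRCm38.p6, the same assembly as mm10, run from 250 bases before to 50 bases after the RefSeq start on the gene's strand, and have each CpG in capitals. RefSeq sequences were matched for 3 of the 6 members, Irx2, Irx4 and Irx3. Irx1, Irx5 and Irx6 are named only. The promoter of Crnde, the lncRNA that starts beside Irx5 and lies in the same Pol2-S5p and Pol2-S7p regions, is added. The windows are chr13:72628570-72628869 (Irx2, plus), chr13:73260247-73260546 (Irx4, plus), chr8:91801605-91801904 (Irx3, minus) and chr8:92356071-92356370 (Crnde, minus). RefSeq and GENCODE starts differ in part. The Irx3 window lies downstream of both GENCODE starts of Irx3 (91802067, the one used below, and 91801915), inside the annotated gene. The Irx2 window lies at the first GENCODE start (72628820), while the start used below for its state is 72629825.
Irx2: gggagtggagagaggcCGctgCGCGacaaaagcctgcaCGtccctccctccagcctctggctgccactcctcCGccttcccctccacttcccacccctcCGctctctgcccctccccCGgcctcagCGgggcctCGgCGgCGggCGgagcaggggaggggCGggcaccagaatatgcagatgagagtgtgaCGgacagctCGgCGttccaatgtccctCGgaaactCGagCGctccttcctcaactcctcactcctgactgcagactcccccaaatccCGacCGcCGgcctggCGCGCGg
Irx4: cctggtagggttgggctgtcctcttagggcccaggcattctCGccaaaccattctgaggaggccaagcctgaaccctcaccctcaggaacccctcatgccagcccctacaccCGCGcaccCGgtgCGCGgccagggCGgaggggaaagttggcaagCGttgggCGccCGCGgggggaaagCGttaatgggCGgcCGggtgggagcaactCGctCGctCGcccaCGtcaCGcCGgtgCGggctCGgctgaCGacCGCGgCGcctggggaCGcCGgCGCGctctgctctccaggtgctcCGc
Irx3: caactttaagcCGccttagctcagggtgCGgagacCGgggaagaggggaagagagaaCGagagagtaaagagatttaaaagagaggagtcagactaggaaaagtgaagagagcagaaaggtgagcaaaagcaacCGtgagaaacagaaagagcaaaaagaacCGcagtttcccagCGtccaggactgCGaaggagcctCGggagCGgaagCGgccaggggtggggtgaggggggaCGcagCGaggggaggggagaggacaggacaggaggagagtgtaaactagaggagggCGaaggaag
Crnde: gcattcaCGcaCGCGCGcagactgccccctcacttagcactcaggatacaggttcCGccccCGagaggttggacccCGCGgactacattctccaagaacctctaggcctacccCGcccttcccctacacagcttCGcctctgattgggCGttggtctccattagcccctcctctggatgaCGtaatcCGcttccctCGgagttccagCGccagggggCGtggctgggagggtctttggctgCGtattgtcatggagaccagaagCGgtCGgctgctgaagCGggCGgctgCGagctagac

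These 300-base windows held 25 CpGs at Irx2, 31 at Irx4, 14 at Irx3 and 22 at Crnde, against a median of 7 and an upper quartile of 20 over 32851 RefSeq promoters. H3K27me3 and Pol2-S5p covered all 300 bases of each of the 4 sequences. Pol2-S7p covered all 300 bases at Irx2, Irx3 and Crnde and none at Irx4, although the Irx4 sequence holds the most CpGs of the 4. Both strands were searched for the GC box (GGGCGG), the CCAAT box, the TATA box (TATAAA) and the E-box (CACGTG), and each was counted by itself without regard to overlap with the others. The GC box occurred 2 times at Irx2, 2 times at Irx4 and 3 times at Crnde, and 35.7% of all RefSeq promoters hold it. The CCAAT box occurred 1 time each at Irx2 and Crnde and is held by 37.4% of promoters. Neither the TATA box (13.6% of promoters) nor the E-box (7.15%) was present in any of the 4. The Irx3 window, which lies downstream of the GENCODE starts, had none of the 4 motifs. The matches are a description of the letters only, and they did not divide the PRCa promoters shown from the PRCr promoter of Irx4.

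The first comparison set the promoters of the members beside those of all protein-coding genes. H3K27me3 and Pol2-S5p were both present at 6 of 6 Iroquois promoters, each taken as a 2 kb window centred on the start site, and Pol2-S7p divided the family evenly. Irx2, Irx3 and Irx5 were PRCa, and Irx1, Irx4 and Irx6 were PRCr. Among all 21938 protein-coding promoters, 37.6% carried H3K27me3, 69.9% carried Pol2-S5p and 60.4% carried Pol2-S7p. The pair H3K27me3 and Pol2-S5p, present at all 6 members, was found at 31.4% of protein-coding promoters. PRCr, the state of 3 members, was the state of 7.69% of protein-coding promoters, and PRCa, the state of the other 3, of 23.7%. Of the 6888 other protein-coding promoters with H3K27me3 and Pol2-S5p, 75.6% also had Pol2-S7p, against 3 of the 6 Iroquois promoters. With 6 genes this difference in share rests on very few promoters.

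The windows were marked almost without gaps. H3K27me3 covered all 2000 bp of the window at every member, which was the case at 26.1% of protein-coding promoters, with or without the mark. Full cover was usual among genes of these states. The median H3K27me3 cover of the window was 100% at other PRCa genes and 100% at other PRCr genes. Pol2-S5p covered 2000 bp at Irx1, Irx2, Irx4, Irx3 and Irx5 and 1912 bp at Irx6. The start with the longest Pol2-S5p cover was used for every gene, which favours full windows. Its median cover was 100% at other PRCa genes and 90% at other PRCr genes. Around other annotated starts Pol2-S5p covered as little as 684 bp at Irx1, 1203 bp at Irx2 and 1374 bp at Irx6. Pol2-S7p covered 2000 bp at Irx2, 2000 bp at Irx3 and 1775 bp at Irx5, and 0 bp at Irx1, Irx4 and Irx6. Every annotated start of a member gave that gene's own state. At Irx2, which has 5 annotated transcripts, Pol2-S7p covered 1620 bp around the first start and 603 bp around the last.

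Of the corresponding genes across the clusters, Irx2 and Irx5 shared the PRCa state and Irx4 and Irx6 shared the PRCr state. Irx1 and Irx3 differed: the window of Irx1 held no Pol2-S7p and that of Irx3 was covered by it over its whole length. In each cluster the middle gene was PRCa and the last gene was PRCr, and the first gene was PRCr on chromosome 13 and PRCa on chromosome 8.

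**Figure D1:**
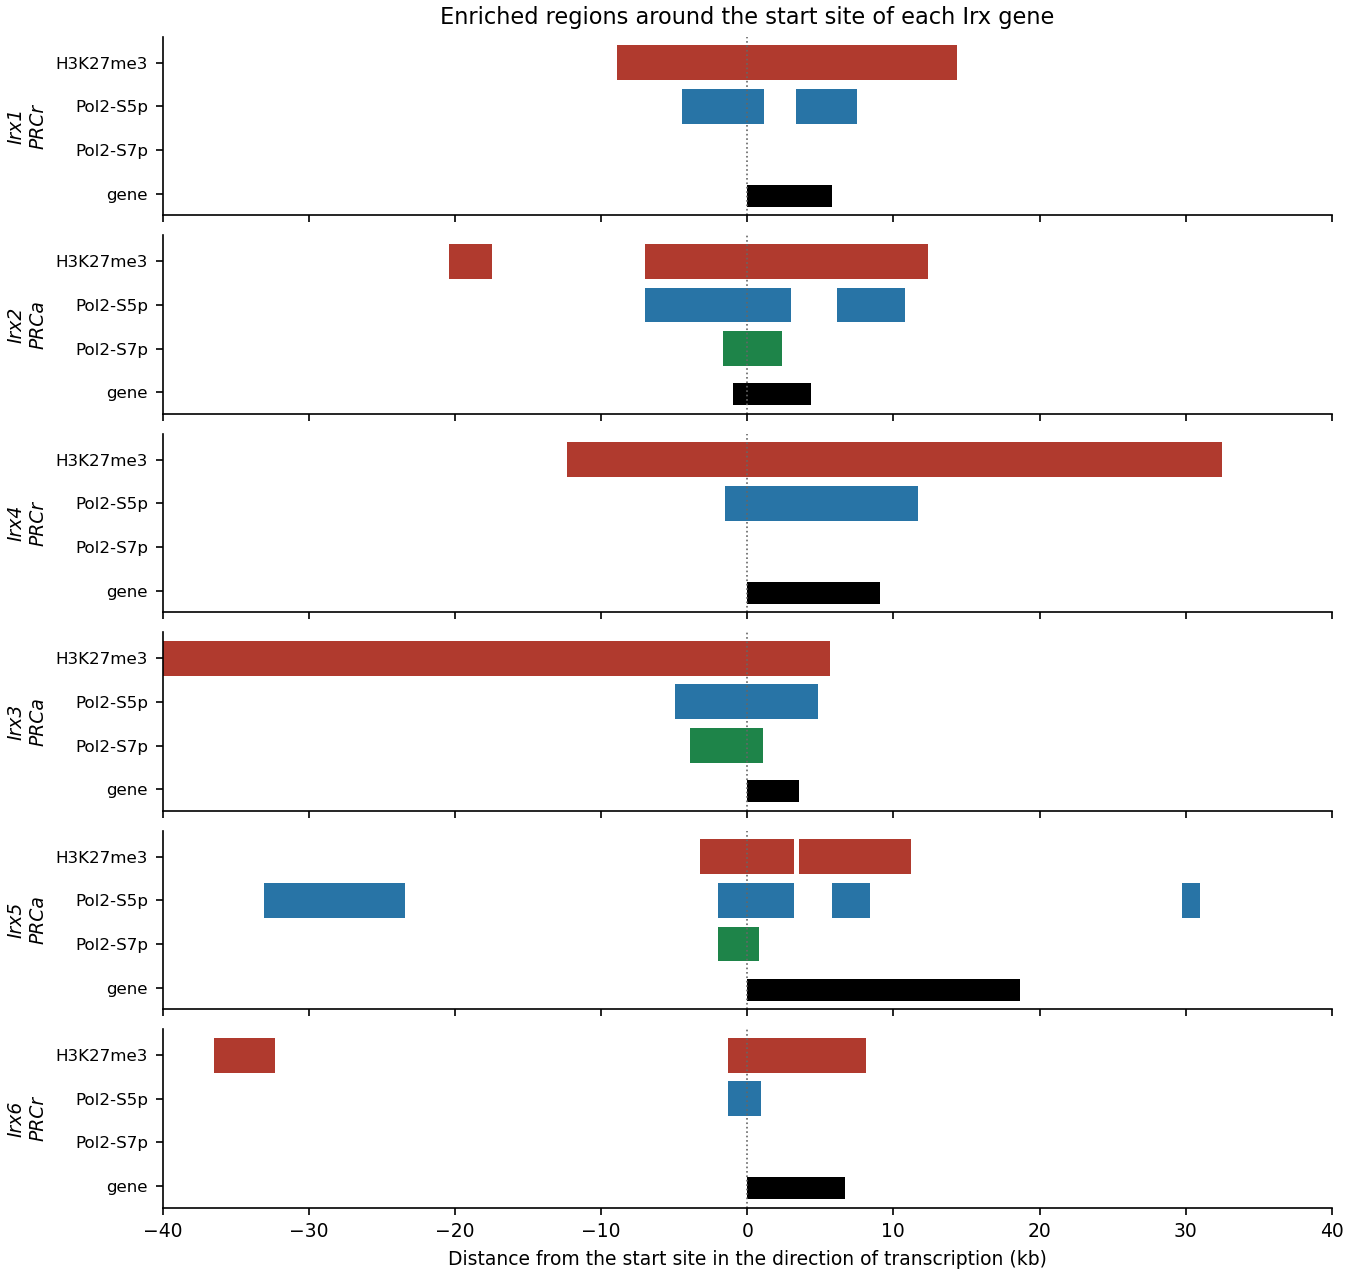
Enriched regions of H3K27me3 (red), Pol2-S5p (blue) and Pol2-S7p (green) within 40 kb of the start site used for each Irx gene, drawn in the direction of transcription (distance in kb), with the gene body in black. Pol2-S7p lies over the start sites of Irx2, Irx3 and Irx5 and is absent around those of Irx1, Irx4 and Irx6, and the H3K27me3 region of Irx3 runs beyond the left edge.

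The states of the weaker regions depend on the threshold of the lists. With only regions scoring above the median of their own list, H3K27me3 stayed at all 6 promoters and at 24.7% of protein-coding promoters, but Pol2-S5p stayed at 2 (Irx3 and Irx5) and Pol2-S7p at 1 (Irx5), while 44.7% of protein-coding promoters kept Pol2-S5p and 36.4% kept Pol2-S7p. With H3K27me3 regions wider than 10 kb left out, the mark stayed at 2 members (Irx5 and Irx6) and at 15.7% of protein-coding promoters. Irx5 was the member that stayed PRCa under each of these filters. Its H3K27me3 was called as neighbouring regions of 6.4 kb and 7.6 kb, each under the 10 kb limit.

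The H3K27me3 region over the start site differed widely in width between members. It was 84.2 kb wide at Irx3, 44.8 kb at Irx4, 23.2 kb at Irx1, 19.4 kb at Irx2, 9.4 kb at Irx6 and 6.4 kb at Irx5, against a median of 15 kb at PRCa genes and 20 kb at PRCr genes. Of all 17342 H3K27me3 regions, 3.09% were wider than that of Irx3 and 34.2% were wider than that of Irx5. The width did not follow the state, since the widest and the narrowest region both lay at PRCa genes. The score ran nearly the other way. It was 34.2 at Irx5, 20.4 at Irx6, 20.1 at Irx2, 15.4 at Irx4, 13.8 at Irx1 and 9.24 at Irx3, against a list median of 8.23. Only 0.744% of all H3K27me3 regions scored higher than that of Irx5, and 41.2% scored higher than that of Irx3. Spearman's rho between width and score was -0.94 over the 6 members and -0.36 over the 5899 H3K27me3 regions at protein-coding promoters, but -0.058 over all 17342 H3K27me3 regions, given as a description only because the regions come from 1 library and the scale of the score is not given in the sources used here.

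The regions were placed differently about their start sites. At Irx3 H3K27me3 reached 78.5 kb upstream, into the space towards Irx5, and 5.67 kb downstream. At Irx4 it reached 12.3 kb upstream and 32.5 kb downstream, past the end of the gene. At Irx1 it reached 8.88 kb upstream and 14.3 kb downstream, and at Irx2 7.03 kb and 12.4 kb. Irx6 had 1.29 kb upstream and 8.11 kb downstream, and Irx5 was nearly centred, with 3.23 kb upstream and 3.17 kb downstream. At Irx5 a second H3K27me3 region of 7.6 kb with a score of 23.0 (chr8:92361200-92368799) began just beyond the first (chr8:92354400-92360799) and lay in the gene body. The width at Irx5, the rho over the members and the 10 kb filter use the first region alone, so they depend on this break in the calls.

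The Pol2-S5p region over the start site was 13.2 kb wide at Irx4, 10 kb at Irx2, 9.8 kb at Irx3, 5.6 kb at Irx1, 5.2 kb at Irx5 and 2.2 kb at Irx6. Its score was 24.0 at Irx5 and 15.6 at Irx3, above the list median of 10.8, and 10.3 at Irx2, 9.91 at Irx6, 7.90 at Irx4 and 7.45 at Irx1, below that median. The median score was 13.7 at PRCa genes and 8.73 at PRCr genes. The Pol2-S7p region was 5 kb wide at Irx3, 4 kb at Irx2 and 2.8 kb at Irx5, against a median of 9 kb at PRCa genes. The lower quartile at PRCa genes was 1400 bp, so all 3 members lay between that quartile and the median. Its score was 21.4 at Irx5, 10.6 at Irx3 and 8.48 at Irx2, against a list median of 12.7. Irx5 thus had the highest score of the members for all 3 marks. Its H3K27me3 region over the start site was the narrowest only when the second region just beyond it is not counted.

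**Figure D2:**
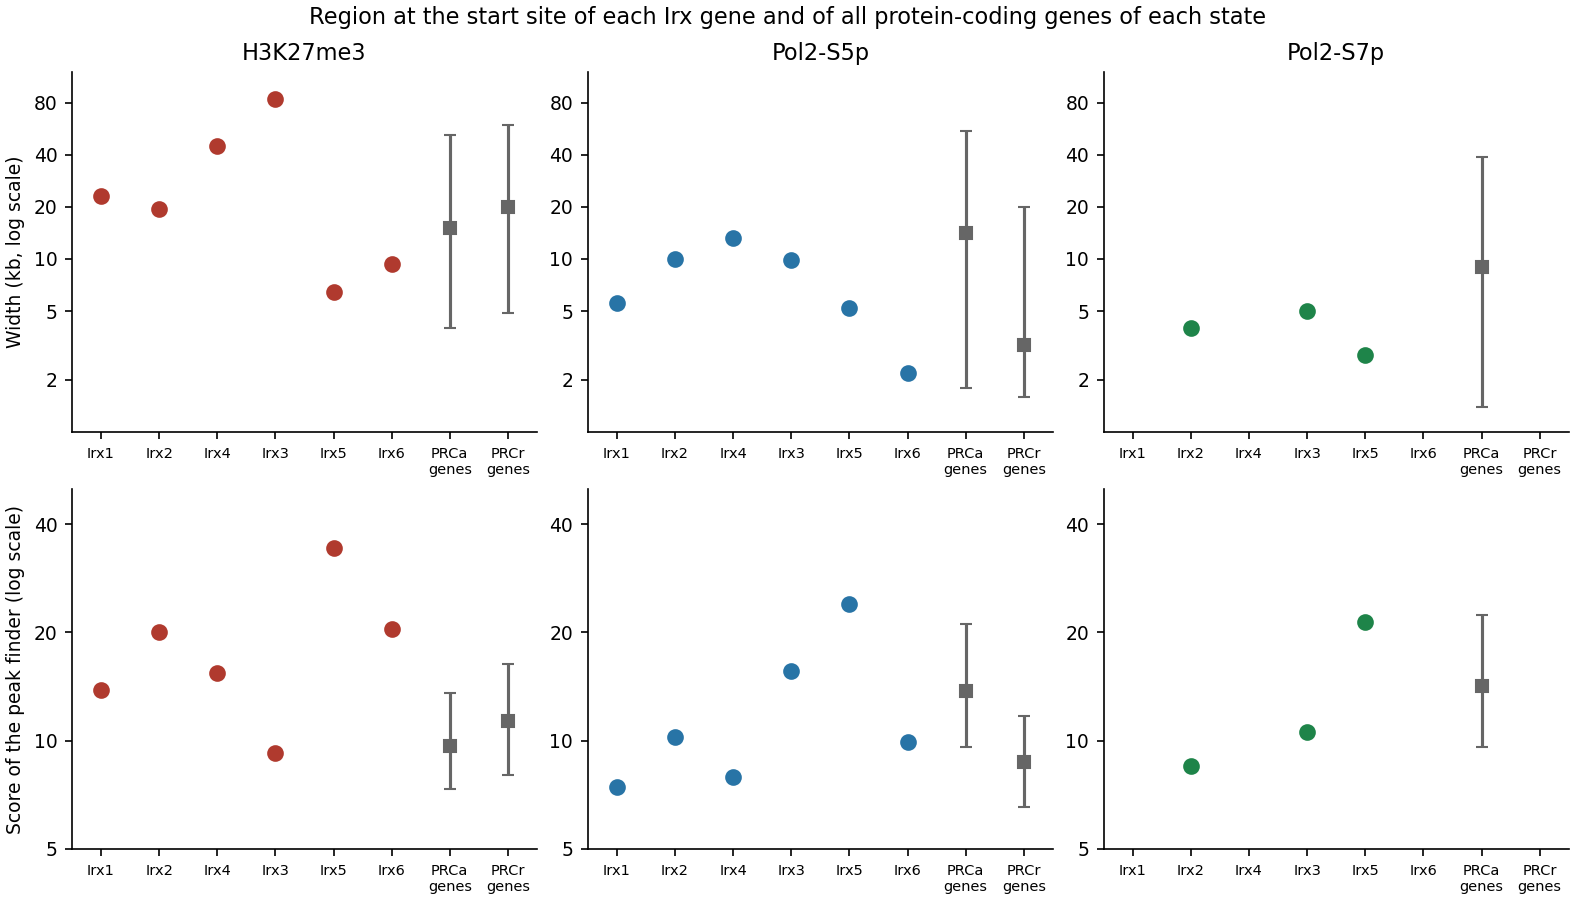
Width in kb (top, log scale) and score (bottom, log scale) of the region over the start site of each Irx gene (coloured points, 1 library per mark) and of all protein-coding genes in the PRCa and PRCr states (grey squares at the median, bars from the lower to the upper quartile). H3K27me3 width spans 6.4 kb at Irx5 to 84.2 kb at Irx3, and Irx5 has the highest score in each panel of scores.

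Inside the genes the marks reached different depths. H3K27me3 covered 100% of the body of every member except Irx5, the longest gene at 18662 bp, where it covered 57.7%. The median was 44.6% of the body at PRCa genes and 71.6% at PRCr genes. Pol2-S5p covered 100% of Irx4, 100% of Irx3, 74.0% of Irx2, 62.1% of Irx1, 30.9% of Irx5 and 13.7% of Irx6. Irx4 and Irx6, the corresponding last genes of the clusters and both PRCr, thus stood at opposite ends for Pol2-S5p, with a median of 18.7% at PRCr genes. Pol2-S7p covered 62.8% of Irx2, 30.1% of Irx3 and 4.15% of Irx5, against a median of 39.6% at PRCa genes, and it covered none of Irx1, Irx4 and Irx6. At Irx1 Pol2-S5p lay in 2 regions, over the start and over the far end of the gene, with a stretch between them that carried H3K27me3 and no polymerase mark. The region at the far end (chr13:71956200-71960399) also lies over the promoter of the lncRNA gene Gm40999. It holds another annotated start of Irx1 too (71959433), so it cannot be assigned to the end of Irx1 alone.

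**Figure D3:**
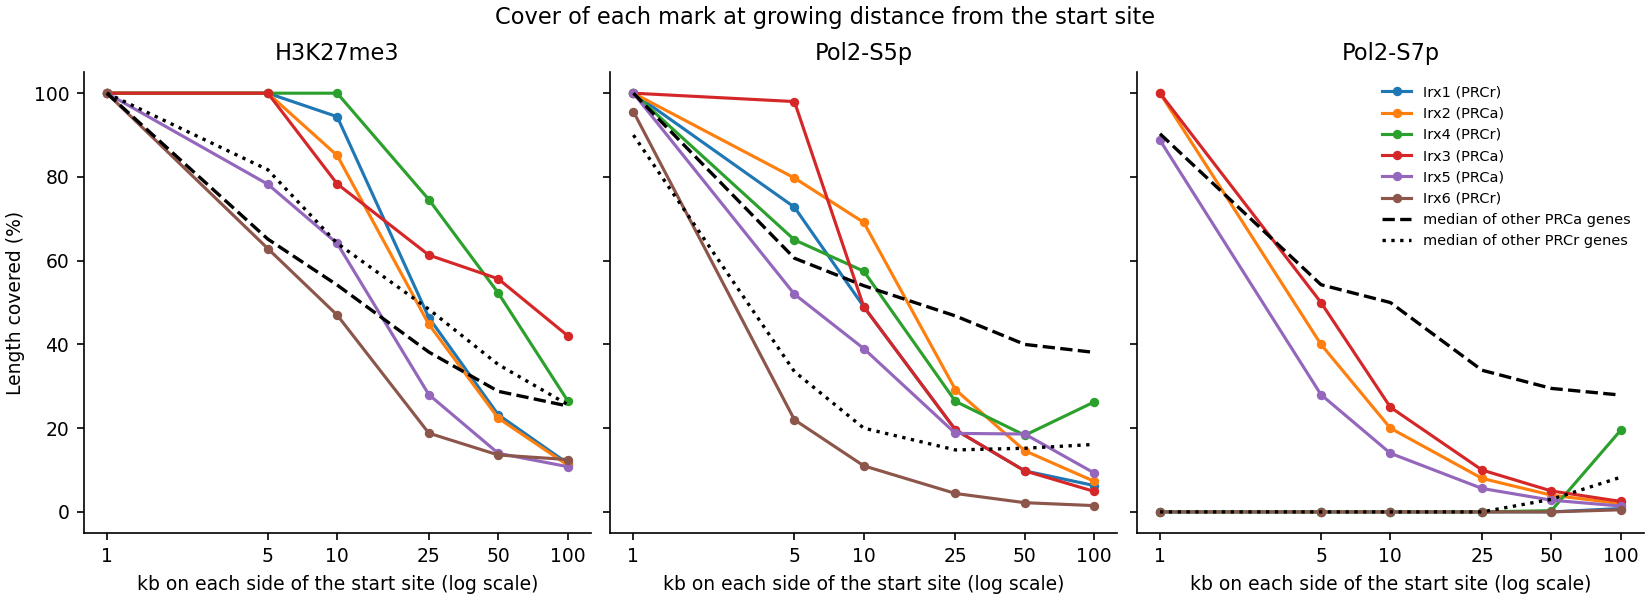
Share of the DNA covered by each mark (%) within 1 to 100 kb on each side of the start site (log scale) for each Irx gene (coloured lines), with the median of the other PRCa genes (dashed) and of the other PRCr genes (dotted). Within 10 kb Pol2-S7p covers 25%, 20% and 14% at Irx3, Irx2 and Irx5, below the PRCa median of 50%, and within 100 kb H3K27me3 still covers 42.1% at Irx3.

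Pol2-S7p stayed close to the start sites of its 3 members. Within 10 kb of the start site Pol2-S7p covered 25% at Irx3, 20% at Irx2 and 14% at Irx5, against a median of 50% at other PRCa genes, whose lower quartile was 8%, so the members lay between that quartile and the median. H3K27me3 within 10 kb covered 100% at Irx4, 94.4% at Irx1, 85.1% at Irx2, 78.3% at Irx3, 64.1% at Irx5 and 47% at Irx6, against medians of 54.2% at other PRCa genes and 64.1% at other PRCr genes. Within 100 kb it covered 42.1% at Irx3 and 26.6% at Irx4, and between 10.8% and 12.5% at the other 4 members, against medians of 25.3% and 25.7% at other PRCa and PRCr genes. Irx6 was below the median of its state at both distances, and Irx1, Irx2 and Irx5 were above theirs within 10 kb and below them within 100 kb.

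The CpG content of the 2 kb windows was high at all members. The ratio of observed to expected CpGs was 0.849 at Irx2, 0.774 at Irx5, 0.757 at Irx1, 0.727 at Irx3, 0.630 at Irx4 and 0.557 at Irx6, against a median of 0.393 over all protein-coding genes. The medians by state were 0.598 for PRCa and 0.482 for PRCr genes. Each member thus lay above the median of its own state, by the least at Irx6, where 36.2% of PRCr genes had a higher ratio. The PRCa and PRCr members overlapped in this measure, since Irx1 (PRCr) was above Irx3 (PRCa).

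The next question was whether the marks fill the clusters or lie at their promoters. The Irx1-Irx2-Irx4 cluster spans 1312 kb from the first to the last base of its genes. H3K27me3 covered 9.06% of it in 10 regions, Pol2-S5p 2.84% in 8 and Pol2-S7p 0.503% in 3. The Irx3-Irx5-Irx6 cluster spans 882 kb, with 18.9% under H3K27me3 in 13 regions, 5.18% under Pol2-S5p in 11 and 1.29% under Pol2-S7p in 5. Over the 21 chromosomes as a whole H3K27me3 covered 8.67%, Pol2-S5p 12.1% and Pol2-S7p 9.58%. Both clusters thus had less polymerase cover than the genome average, and the cluster on chromosome 8 had more H3K27me3. The clusters are mostly long spaces without protein-coding genes, while the genome average includes genes. Beside other long gaps, as given below, Pol2-S5p cover of each space was above the median. No mark covered 90.5% of the chromosome 13 cluster and 78.1% of the chromosome 8 cluster, against 80.8% of the genome.

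The polymerase marks lay within H3K27me3 to a larger share in the clusters than in the genome. Of the DNA under Pol2-S5p, 89.3% in the Irx1-Irx2-Irx4 cluster and 42.6% in the Irx3-Irx5-Irx6 cluster was also under H3K27me3, against 25.2% in the genome. For Pol2-S7p these shares were 60.6% and 78.9% in the clusters and 18.0% in the genome. The reverse shares were lower in the clusters. Of the DNA under H3K27me3, 28.0% in the Irx1-Irx2-Irx4 cluster and 11.7% in the Irx3-Irx5-Irx6 cluster was also under Pol2-S5p, against 35.2% in the genome. The member promoters, which carry both marks, are part of these lengths, and each cluster holds few regions.

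**Figure D4:**
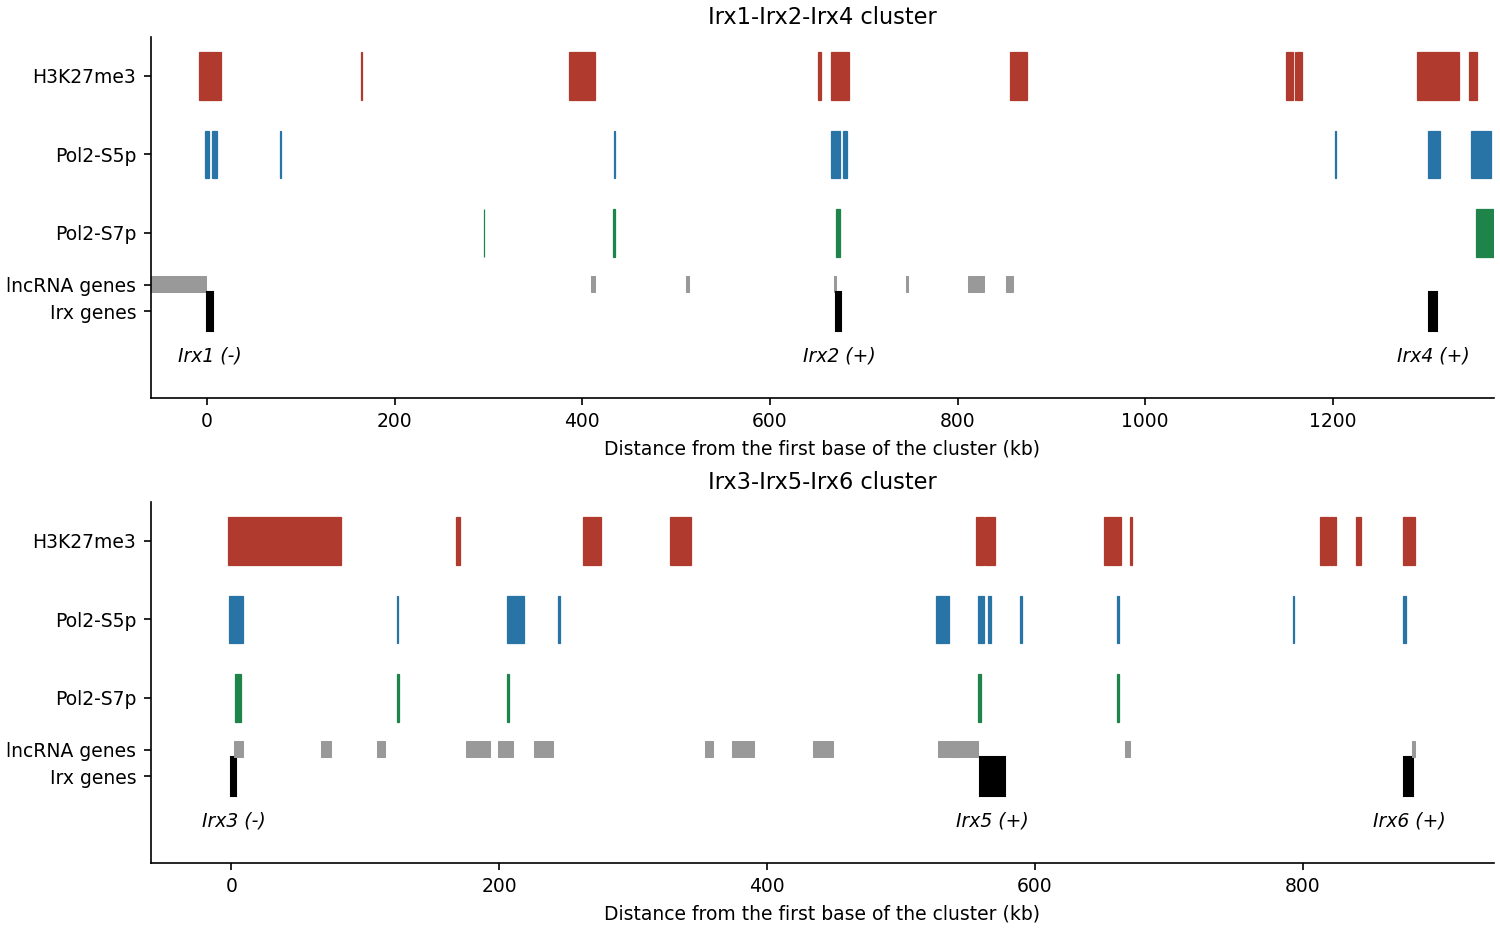
Maps of the Irx1-Irx2-Irx4 cluster (top) and the Irx3-Irx5-Irx6 cluster (bottom) to scale, with distance from the first base of the cluster in kb, regions of each mark in colour, lncRNA genes in grey and the Irx genes in black with their strand. H3K27me3 lies at all 6 genes and in separate regions between them, and Pol2-S7p lies in 3 regions in the top cluster and 5 in the bottom one, with a further region beginning at the right edge of the top map, beside Irx4.

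The spaces between the members are long stretches without protein-coding genes. Irx1 and Irx2 lie 665 kb apart, Irx2 and Irx4 626 kb, Irx3 and Irx5 556 kb, and Irx5 and Irx6 298 kb. H3K27me3 covered 20.4% of the space between Irx3 and Irx5, 10.7% of that between Irx5 and Irx6, 8.22% of that between Irx2 and Irx4 and 7.08% of that between Irx1 and Irx2. The median was 0.921% over the 1353 other gaps of 250 kb or more between neighbouring protein-coding genes. Over the 298 of these gaps with H3K27me3 at both flanking promoters the median was 1.18% and the upper quartile 5.40%, so all 4 Iroquois spaces lay above that quartile. The number of such gaps with more H3K27me3 was 34 for the space between Irx3 and Irx5 and 67 for the space between Irx1 and Irx2. Pol2-S7p covered 1.50%, 0.403%, 0% and 0.484% of the spaces from Irx3 to Irx5, Irx5 to Irx6, Irx2 to Irx4 and Irx1 to Irx2, against a median of 0.557% over the same 298 gaps. Pol2-S5p covered 5.61%, 1.44%, 1.10% and 2.06% of these spaces in the same order, against a median of 0.712% and an upper quartile of 1.72% over the 298 gaps. It was thus above the median in all 4 spaces and above the upper quartile from Irx3 to Irx5 and from Irx1 to Irx2. These lengths include regions that run out from the member promoters. With 25 kb beside each gene left out, Pol2-S5p covered 4.48%, 0.726%, 0.139% and 0.520% of the spaces in that order. H3K27me3 then covered 16.9%, 12.3%, 5.41% and 4.75% of them, in the same order. No such values were set beside these for the other gaps, so the place above the upper quartile holds for the whole spaces only. The 298 gaps were chosen by H3K27me3 at the flanking promoters, not by Pol2-S5p.

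**Figure D5:**
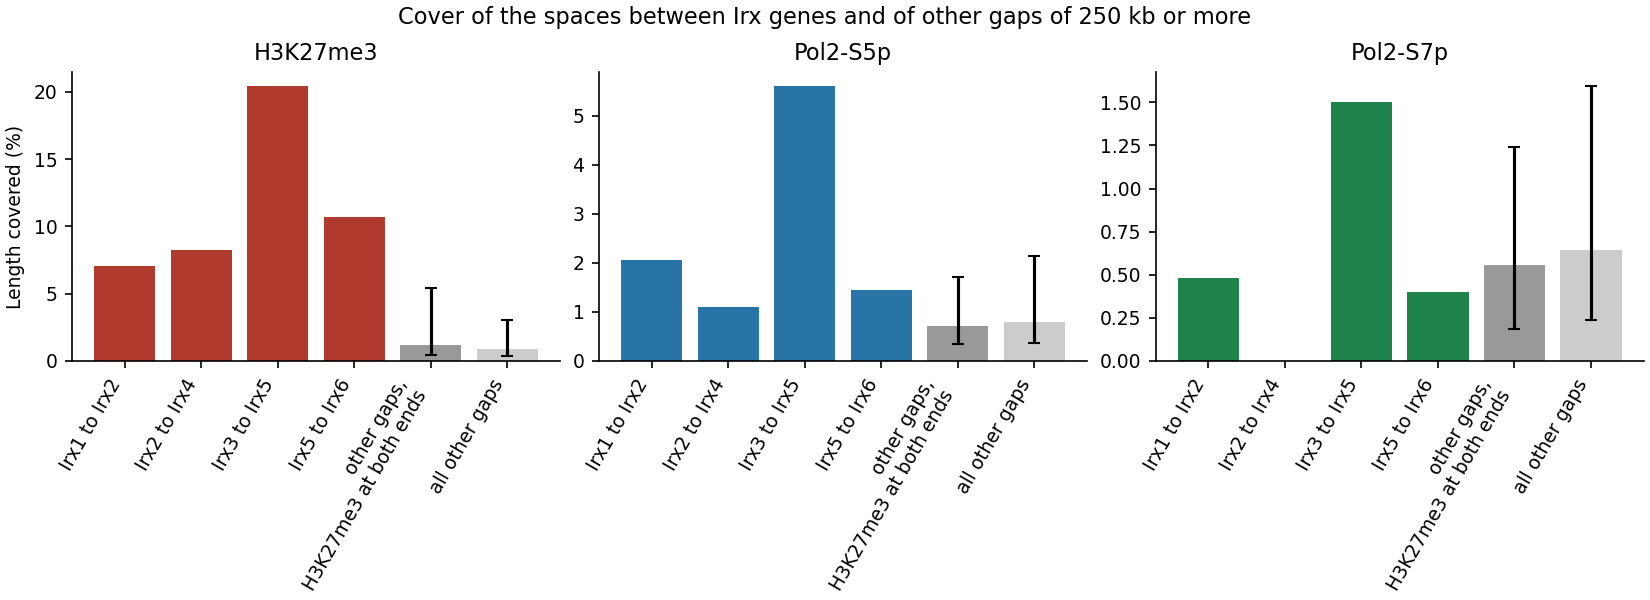
Length covered by each mark (%) in the 4 spaces between neighbouring Irx genes (coloured bars) and, in grey, the median of other gaps of 250 kb or more with H3K27me3 at both flanking promoters (298 gaps) and of all other such gaps (1353), with bars from the lower to the upper quartile. All 4 Iroquois spaces exceed the upper quartile of both sets for H3K27me3, from 7.08% to 20.4%, and the space between Irx2 and Irx4 holds no Pol2-S7p. The lengths include regions that run out from the member promoters.

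The H3K27me3 of the spaces came in part from the regions that lie over the member promoters and run outward. Between Irx3 and Irx5 these regions gave 14.7% of the space, nearly all of it from the wide region of Irx3, and 3 other regions gave 5.72%. In the space between Irx5 and Irx6 the order was the reverse, with 0.432% from the member promoter regions and 10.3% from 6 other regions. Between Irx2 and Irx4 the shares were 3.24% from promoter regions and 4.98% from other regions, and between Irx1 and Irx2 they were 2.24% and 4.84%. The other regions thus held 30.6 to 32.2 kb in each of the 4 spaces. The same split was not made for the other gaps. Between Irx1 and Irx2 the widest of these regions was 28 kb (chr13:72343200-72371199, score 5.29), and between Irx2 and Irx4 it was 17.6 kb (chr13:72814000-72831599, score 7.32). Each of them touched the promoter of a lncRNA gene, Gm47836 and D730050B12Rik. Between Irx3 and Irx5 there were regions of 15.4 kb (score 7.02), 13.8 kb (score 8.02) and 2.6 kb (score 11.1), and between Irx5 and Irx6 the widest was 13 kb (chr8:92450000-92462999, score 11.8). The last 2 of these scores lay above that of the region at Irx3 (9.24) and below those at the other 5 members.

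The outer borders of the clusters differed. From Irx4 to Ndufs6, a gene of mitochondrial complex I, 50.2 kb away, H3K27me3 covered 63.3%, Pol2-S5p 33.9% and Pol2-S7p 19.2%. There the last H3K27me3 region (chr13:73303000-73311399) met a 39 kb Pol2-S7p region (chr13:73310200-73349199) that runs over Ndufs6, whose promoter was Active. From Fto to Irx3, 130 kb, H3K27me3 covered 1.63%, and the promoter of Fto, an RNA demethylase gene, was Active. From Irx6 to Mmp2, a matrix metalloprotease gene, it covered 1.18%, and the Mmp2 promoter was PRCa. From Adamts16 to Irx1 it covered 2.81% of 1116 kb, and the promoter of Adamts16 had H3K27me3 only.

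The 20 lncRNA genes counted here overlap a cluster or start within 5 kb of a member, so that Gm48000, whose promoter lies in the H3K27me3 region of Irx4 beyond the cluster, is not among them. At their promoters 12 were Inactive, 4 had H3K27me3 only, 3 were PRCa and 1 was PRCr, and none was Active. Among 13374 lncRNA genes, TEC class included, 52.4% were Inactive, 9.13% had H3K27me3 only, 10.4% were PRCa, 4.93% were PRCr and 17.9% were Active. The share of Inactive genes in the clusters was thus close to that of all genes in this set. The 3 PRCa lncRNAs were those that start on the opposite strand within 2 kb of a member. Gm20554 starts 256 bp from the first start of Irx2, Irx3os starts 108 bp from Irx3, and Crnde starts 1505 bp from Irx5. Irx1, Irx4 and Irx6, the PRCr members, had no such partner. The windows of partner and member overlap, so the marks of member and partner are in part the same regions and cannot be assigned to either gene. This pattern was noticed after the states were known. Among the other protein-coding promoters with H3K27me3 and Pol2-S5p, 76.8% of the 698 with such a partner (95% exact binomial interval 73.5% to 79.9%) and 75.4% of the 6190 without one (74.3% to 76.5%) had Pol2-S7p. The intervals cover counting error only and overlap.

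Between the members, 4 sites outside the member promoters carried both polymerase marks. The sequence of 2 of them is shown because they differ in what kind of DNA they hold, with the central 300 bases, plus strand of mm10, and CpGs in capitals as above. The first is chr8:92460350-92460649, between Irx5 and Irx6, and the second is chr13:72392150-72392449, between Irx1 and Irx2.
Site between Irx5 and Irx6: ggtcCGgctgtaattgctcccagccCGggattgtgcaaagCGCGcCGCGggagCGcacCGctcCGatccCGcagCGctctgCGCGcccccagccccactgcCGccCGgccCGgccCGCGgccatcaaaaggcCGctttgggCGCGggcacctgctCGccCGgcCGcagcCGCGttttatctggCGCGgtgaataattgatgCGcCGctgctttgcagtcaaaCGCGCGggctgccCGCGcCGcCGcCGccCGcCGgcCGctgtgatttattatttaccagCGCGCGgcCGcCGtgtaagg
Site between Irx1 and Irx2: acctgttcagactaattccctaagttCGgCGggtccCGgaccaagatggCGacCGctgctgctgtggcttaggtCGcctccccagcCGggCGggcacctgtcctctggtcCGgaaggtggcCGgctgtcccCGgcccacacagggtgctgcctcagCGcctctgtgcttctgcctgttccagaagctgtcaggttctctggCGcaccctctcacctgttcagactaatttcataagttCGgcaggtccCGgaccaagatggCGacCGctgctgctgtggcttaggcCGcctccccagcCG

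The site between Irx5 and Irx6 lay 102 kb from the Irx5 start and carried all 3 marks over 1000 bp. Its 300 bases held 46 CpGs at an observed to expected ratio of 1.22, and 7.33% of them are repeat-masked in the reference. The whole Pol2-S5p region there had a ratio of 0.998, and 0.462% of the 29222 Pol2-S5p regions had a higher one. No start of a protein-coding or lncRNA gene is annotated within it. Its scores were 15.3 for Pol2-S5p and 7.56 for Pol2-S7p, the second below the list median.

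The site between Irx1 and Irx2 had no H3K27me3 and the highest polymerase scores of either cluster, 65 for Pol2-S5p and 36.8 for Pol2-S7p, and 1.27% and 9.71% of the lists scored higher. All of its 300 central bases are repeat-masked, as are 90.9% of the Pol2-S5p region and 89.5% of the Pol2-S7p region. The part of repeats in these scores was not tested. Of the 374 Pol2-S5p regions scoring as high, 31.0% were more than 50% repeat-masked, against 25.5% of all Pol2-S5p regions, and of the 2169 Pol2-S7p regions scoring as high as the Pol2-S7p region there, 22.8% were, against 22.4% of all. In the clusters 3 of 19 regions of Pol2-S5p, 1 of 8 of Pol2-S7p and 0 of 23 of H3K27me3 were more than 50% repeat-masked, against 25.5%, 22.4% and 21.5% of the whole lists. The remaining 2 sites, both between Irx3 and Irx5 at chr8:91922200-91923199 and chr8:92004600-92005599, had no H3K27me3 and lay 120 kb and 203 kb from the Irx3 start, the second inside the lncRNA gene Gm36843.

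Along the clusters, most CpG-rich DNA under H3K27me3 lay near the members. Within 10 kb of a member's start, 46 of 46 CpG-rich 200-bp bins of the Irx1-Irx2-Irx4 cluster and 44 of 45 of the Irx3-Irx5-Irx6 cluster were in H3K27me3, and so were 91.2% and 62.3% of the other bins there. Further away, 4 of 30 CpG-rich bins (13.3%) in the first cluster and 13 of 28 (46.4%) in the second were in the mark, against 5.37% and 15.6% of the other bins. The 17 H3K27me3 regions outside the member promoters had a median CpG ratio of 0.214, against 0.366 for the 6 at member promoters. Neighbouring bins share regions, so they are not independent.

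The Iroquois genes were then set beside other homeobox families by counts. H3K27me3 was at 6 of 6 Iroquois promoters, 6 of 12 other TALE genes, 6 of 6 Dlx genes and 39 of 39 Hox genes. PRCr was the state of 3 of 6 Iroquois genes, 1 of 12 other TALE genes (Mkx, a tendon factor), 4 of 6 Dlx genes and 29 of 39 Hox genes, which set position along the body axis. PRCa was the state of 3 Iroquois genes, 5 other TALE genes (Meis1, Meis2, Meis3 and Pbx3 among them), 2 Dlx genes and 7 Hox genes. Unlike the Iroquois genes, 5 of the 12 other TALE genes were Active, among them Pbx2 and Tgif1, a state held by 36.1% of all protein-coding promoters and by 0 of 6 members. The median H3K27me3 region over the promoter was 21.3 kb wide for the Iroquois genes, 19.3 kb for the other TALE genes with the mark, 48.5 kb for Dlx and 131 kb for Hox genes. Among these families the Iroquois median was closest to that of the other TALE genes. It also lay near the median of all PRCr genes given above, and the members ranged from 6.4 kb to 84.2 kb, so the likeness is not particular to the TALE class. Genes of the compact Hox clusters often share 1 region. Genes of a family are not independent of each other in this count.

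The label of the cells was checked against marker genes. Of 8 embryonic stem cell markers 6 were Active, Pou5f1 and Nanog among them, and 2 (Klf4 and Sox2) were PRCa. Of 8 feeder fibroblast markers 0 were Active, 4 were Inactive, 2 had H3K27me3 only, 1 (Thy1) was PRCr and 1 (Fbn1) was PRCa. Inactive was the state of 23.5% of all protein-coding promoters and H3K27me3 only that of 6%, and no member had either.

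The genes most like each member in the pattern of the 3 marks over 50 kb on each side were searched among protein-coding genes more than 1 Mb from any member. The measure was the Jaccard index, the share of marked 200-bp bins held in common, over 1500 bins. For Irx1 the likest were Sox14 (0.736), Otx1 and Wnt5a, for Irx2 Pou4f1 (0.695), Grin2a and Wnt5a, and for Irx4 Msx2 (0.724), Cxcl12 and Bhlhe41. For Irx3 they were Pdgfra (0.848), Dglucy and Mecom, for Irx5 Dusp13 (0.517), Pou4f1 and Prokr1, and for Irx6 Nhs (0.634), Rgs7bp and Spats2l. These genes are the best of all protein-coding genes searched, so their indices are not comparable with those between members. The highest index between 2 members was 0.556, for Irx1 and Irx2, and Irx4 and Irx6 had the lowest, 0.158. With profiles of 10 kb on each side, 1 of these 18 matches was found again.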

How the data were processed

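ChIP-seq for H3K27me3, Pol2-S5p and Pol2-S7p was done in F123 mESCs, with 1 library each of single-end 75 bp reads. Per the methods, the authors mapped reads with Bowtie2 (version 2.3.4.3) to mm10 with variant positions masked and called enriched regions with a Bayesian change-point peak finder at default settings. The deposited lists give start, end, width and a score; the authors' scale of this score is not given in the sources used here, and it was used only to rank regions within a list. Masking and the mapping of repeats can move regions over repetitive DNA.

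Promoters were windows of 2 kb around the start with the longest Pol2-S5p cover (GENCODE M21), marked by an overlap of 1 bp. The study's exclusion of neighbouring promoters was not applied, so Irx2, Irx3 and Irx5 stayed in. The genes named were all 6 members, genes in and beside the clusters, the 3 likest genes per member and up to 4 genes per state of each list. A further homeobox list is not reported here. The members and lists were chosen with earlier results of these data known. Python 3.11.15, NumPy 2.4.6, SciPy 1.17.1 and Matplotlib 3.10.9 were used, and the state calls were tested on simulated data.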

Additional observations from a re-analysis of the deposited data

How the results depend on the processing

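Windows of 1 kb or 4 kb, a need for 50% of the window covered and the start of the longest transcript kept the promoter counts of all 3 marks and of PRCr. With only regions scoring above the median of their list, the count with Pol2-S5p was 2, with Pol2-S7p 1 and in the PRCr state 1 (Irx3 in place of Irx1, Irx4 and Irx6, with 5.33% of protein-coding promoters PRCr), and H3K27me3 covered 4.23% of the Irx1-Irx2-Irx4 cluster and 13.6% of the Irx3-Irx5-Irx6 cluster. With H3K27me3 regions over 10 kb left out, 2 promoters kept H3K27me3 and 1 (Irx6) was PRCr, as were 3.02% of protein-coding promoters. With regions over 10 kb of all 3 marks left out these counts were again 2 and 1, beside 16.8% and 3.74% of protein-coding promoters. Pol2-S5p then stayed at 5 members and 33.0% of protein-coding promoters, and Pol2-S7p at 3 members and 25.8%. Irx4 lost its H3K27me3 and Pol2-S5p calls and became Inactive. H3K27me3 cover of the clusters was 1.36% and 4.78% with this filter. With 50 kb added on each side of the clusters, cover was 11.3% and 17.3%. Pol2-S5p cover of the clusters was 0.168% and 1.98% with the score filter and 2.03% and 3.75% without regions over 10 kb, and Pol2-S7p cover was 0.183% and 0.453% with the score filter and 1.13% and 1.16% with 50 kb added. These changes follow from the removal or addition of regions.

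No paired analysis was possible because each mark has 1 library. No replicates, no read counts and an unstated score scale limit every value to the calls of the deposited lists. A region that is not listed is a missing call at a depth not considered here, which does not show that the mark is absent.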
